A study of Mus musculus with 8 samples.

Results

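The 45 chaperone and protein folding genes described here are a listed set of 45 among 21000 mouse protein-coding genes with a curated RefSeq transcript. A gene was counted as having a c-Jun peak when the centre of a peak lay within 10 kb of one of its transcription start sites (TSSs) on mm10. In EpiSCs 27 of the 45 genes had a peak (60%, 95% Wilson interval 45.5 to 73.0%), from 39 of the 16166 peaks of that line. In kEpiSCs 12 of the 45 had one (26.7%, 16.0 to 41.0%), from 14 of 6032 peaks. The corresponding shares of all protein-coding genes were 21.8% in EpiSCs and 8.27% in kEpiSCs. Averaged over genes of the same length group, of 10 such groups, those shares were 22.9% and 8.66%.

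Chaperones bind unfolded polypeptides and help them to reach their native shape. Hsp70 proteins hold exposed stretches of a chain in cycles of ATP hydrolysis that J-proteins stimulate, Hsp90 proteins act later on kinases and receptors, and the CCT ring (also called TRiC) encloses actin and tubulin while they fold. In the endoplasmic reticulum (ER), lectin chaperones, disulfide isomerases and the Hsp70 protein BiP fold secreted and membrane proteins. Heat shock factors switch on cytosolic chaperone genes through heat shock elements, and the unfolded protein response switches on ER chaperone genes through ER stress elements, which combine a CCAAT box with CCACG. c-Jun binds DNA as a dimer with Fos, Jun or ATF family proteins. The Jun-Fos dimer AP-1 prefers TGACTCA, which is TGAGTCA on the other strand, and Jun-ATF dimers prefer the cAMP response element (CRE) TGACGTCA.

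The experiment was c-Jun ChIP-seq of a wild type mouse EpiSC line, primed pluripotent cells from the epiblast, labelled CBA/CaJ X C57BL/6J, and of kEpiSCs. The study's methods give a parentage for EpiSCs that differs from this label, with fathers of the OG2 strain, which carries an Oct4-GFP reporter, so the reporter may be common to both lines. The kEpiSCs are EpiSCs with Klf4 under a CAG promoter, delivered by lentivirus and selected with G418, and are described as carrying the Oct4-GFP reporter. Their labels name no strain. The labels describe feeder-free culture with ActivinA and bFGF, and there were 2 c-Jun ChIP and 2 input libraries for each line. The libraries' antibody field names c-Jun, although H3K27ac stands in the protocol text. The authors deposited 1 peak list per line. How the ChIP-seq replicates were combined is not given in the sources used here, and a list may rest on the first replicate alone. No spread between replicates can be given, the lines were not compared by a test, and all intervals cover counting error only. Fewer cells bound and weaker binding per cell cannot be told apart.

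The fold enrichment is the authors' value at the summit of a peak and sets the ChIP reads plus 1 against the local background plus 1. The reads at the summit were solved from the fold and the p-value. All EpiSC peaks had a median fold of 6.16 and 10 reads at the summit, and all kEpiSC peaks a median fold of 7.24 and 14 reads. The 39 EpiSC peaks near the folding genes had a median fold of 5.76 (3.54 to 19.8) and 11 reads (5 to 31). In kEpiSCs the 14 peaks near these genes had a median fold of 6.52 (3.95 to 11.3) and 14 reads (9 to 25).

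The sequences that follow are stretches within the peaks to which the results refer most, read 5′ to 3′ from the plus strand of mm10. They are placed around the marked motif, not around the peak centre or summit. The first 5 are shown because each is the peak of highest EpiSC fold, among those with an exact AP-1 site, near a CCT, cytosolic Hsp90, ER, small heat shock protein or co-chaperone gene. Capitals mark the AP-1 site. Here and in the rest of the text, a peak is said to have a motif only when an exact match lies in its central 200 bp.
Cct7, chr6:85444040-85444120: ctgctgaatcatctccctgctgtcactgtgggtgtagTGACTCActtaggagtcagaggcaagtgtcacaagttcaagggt
Hsp90aa1, chr12:110703351-110703431: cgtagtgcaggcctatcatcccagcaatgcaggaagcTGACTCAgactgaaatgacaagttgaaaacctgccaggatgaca
Hspa5, chr2:34770268-34770348: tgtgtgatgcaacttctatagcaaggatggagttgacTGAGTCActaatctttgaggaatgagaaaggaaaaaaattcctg
Hspb1, chr5:135884769-135884849: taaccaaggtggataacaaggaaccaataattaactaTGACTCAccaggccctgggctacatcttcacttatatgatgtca
Stip1, chr19:7044370-7044450: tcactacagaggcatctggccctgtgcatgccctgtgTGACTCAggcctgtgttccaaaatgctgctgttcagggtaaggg
The other 3 come from the promoter peaks of highest fold in the J-protein, ER and CCT classes, and none of these 3 peaks had an exact AP-1 site in its central 200 bp. Capitals mark a heat shock element at Dnajb6, an ER stress element at Calr and a CCAAT box, read on the minus strand, at Cct3.
Dnajb6, chr5:29735818-29735897: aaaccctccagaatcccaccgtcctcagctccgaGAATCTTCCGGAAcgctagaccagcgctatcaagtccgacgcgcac
Calr, chr8:84847044-84847124: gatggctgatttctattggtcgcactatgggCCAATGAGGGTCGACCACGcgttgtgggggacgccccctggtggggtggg
Cct3, chr3:88297064-88297134: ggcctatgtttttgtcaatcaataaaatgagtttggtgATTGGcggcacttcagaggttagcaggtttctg

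**Figure D1:**
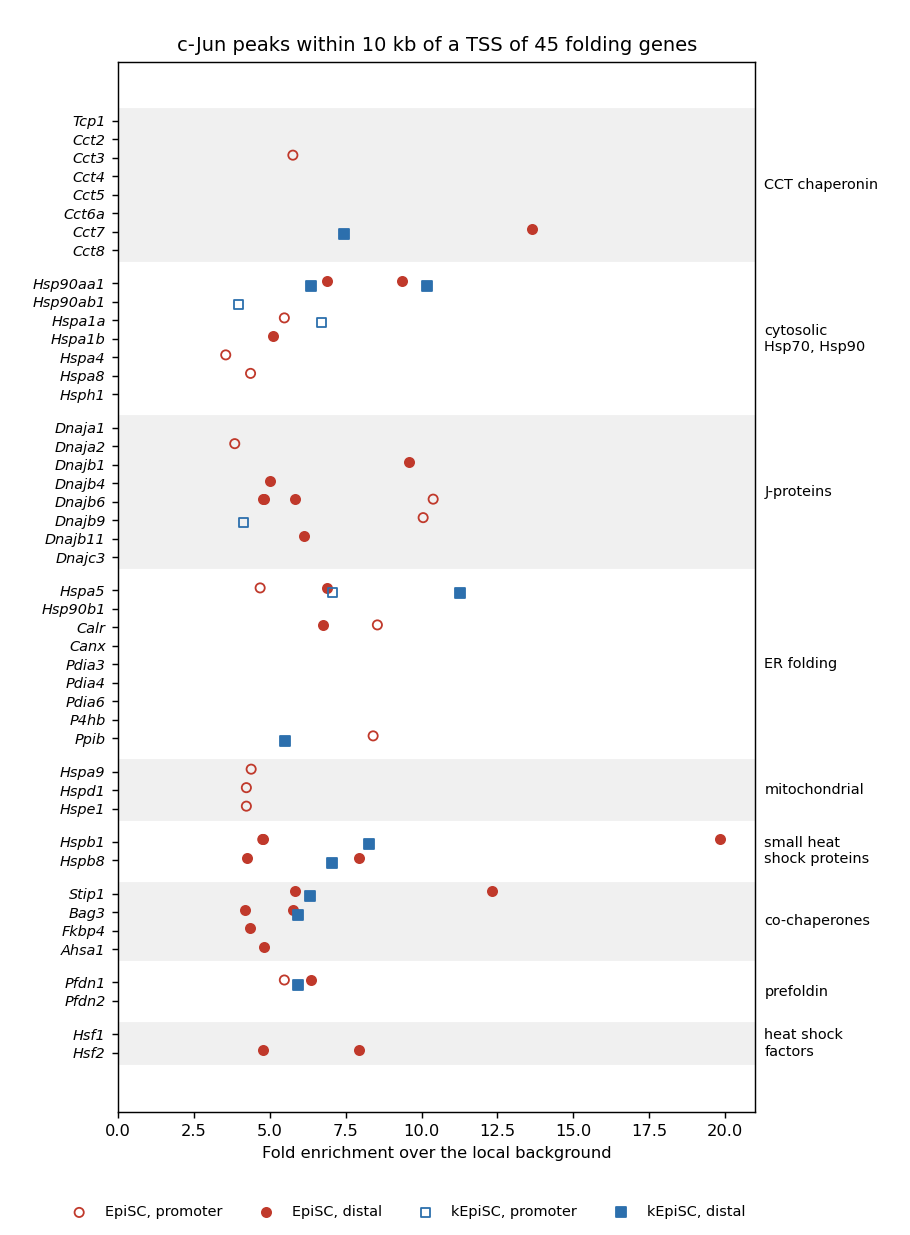
Fold enrichment (x axis, linear) of the c-Jun peaks found up to 10 kb from a TSS of the 45 genes (y axis, grouped by role), with EpiSC peaks as red circles, kEpiSC peaks as blue squares, open marks for promoter peaks and filled marks for distal ones. Hspb1 has the highest fold, 19.8 in EpiSCs, and 17 genes have no mark in either line.

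The share of genes with a peak varied from class to class, and each class is small. Of the CCT subunit genes 2 of 8 had an EpiSC peak (25%, Wilson interval 7.15 to 59.1%), and of the ER folding genes 3 of 9 (33.3%, 12.1 to 64.6%). By comparison 5 of 7 cytosolic Hsp70 and Hsp90 genes (71.4%, 35.9 to 91.8%) and 6 of 8 J-protein genes (75%, 40.9 to 92.9%) had one. These 4 intervals overlap. Among all genes of the same length groups, 23.8% had an EpiSC peak for CCT and 23.6% for ER folding. The corresponding shares were 22.2% for cytosolic Hsp70 and Hsp90 and 23.3% for J-proteins. The CCT share was thus close to that of other genes. All 3 mitochondrial chaperone genes, both small heat shock protein genes and all 4 co-chaperone genes had an EpiSC peak. So did 1 of 2 prefoldin genes and 1 of 2 heat shock factor genes. The 3 mitochondrial chaperone genes were counted from 2 peaks. For the first 3 classes the intervals began at 43.9, 34.2 and 51.0%, and for the last 2 they ran from 9.45 to 90.5%. Genes of the same length groups had 22.6, 15.4, 23.1, 23.3 and 24.7% in that order. In kEpiSCs the counts were 1 of 8 for CCT, 3 of 7 for cytosolic Hsp70 and Hsp90, 1 of 8 for J-proteins and 2 of 9 for ER folding. The shares of all genes of the same length groups were 8.93, 8.59, 8.94 and 8.9% in that order. A count of 1 of 8 (12.5%) is near them. Neither a mitochondrial chaperone gene nor a heat shock factor gene had a kEpiSC peak, with intervals that reach 56.1 and 65.8%. Both small heat shock protein genes, 2 of 4 co-chaperone genes and 1 of 2 prefoldin genes had one. Their intervals began at 34.2, 15.0 and 9.45%. The same-length shares of these 5 classes were 8.27, 9.1, 5.64, 8.44 and 9.19% in that order.

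Among the 8 genes of the CCT ring, only Cct7 and Cct3 had a peak in EpiSCs. The Cct7 peak (chromosome 6, 85443994 to 85444160) was 7428 bp upstream of the TSS in intron 10 of the neighbouring gene Smyd5. It had a fold of 13.6 from 21 reads at the summit and held the AP-1 site printed above. Another gene, Pradc1, had its TSS slightly nearer to this peak, at 7225 bp, so the peak cannot be assigned to Cct7 by position. kEpiSCs had no peak overlapping it but had one 236 bp further along, in intron 11 of Smyd5 (fold 7.43, 14 reads), which had an AP-1 site of its own. The Cct3 peak lay 58 bp upstream of the TSS, with a fold of 5.76 from 15 reads and 2 CCAAT boxes but no AP-1 site, and had no kEpiSC counterpart. For Tcp1, Cct2, Cct4, Cct5, Cct6a and Cct8 the nearest EpiSC peak was between 17651 bp (Cct4) and 91597 bp (Tcp1) away.

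The 7 cytosolic Hsp70 and Hsp90 genes had 6 EpiSC peaks, with a median fold of 5.28. Hsp90aa1, which encodes the inducible cytosolic Hsp90, had 2 peaks, both present in both lines. The upstream one, at 6973 bp (chromosome 12, 110703137 to 110703599), had a fold of 9.35 in EpiSCs and 10.2 in kEpiSCs from 25 reads in each, with 2 AP-1 sites in the EpiSC peak. The other, 8279 bp downstream of the TSS and past the end of the gene, had folds of 6.88 and 6.35 and no AP-1 site, and the TSS of 1700001K19Rik lay nearer to it. Hsp90ab1, the constitutive Hsp90 gene, was the only one of the 45 with a kEpiSC peak and no EpiSC peak. That peak lay 53 bp upstream of its TSS and held both an AP-1 site and a CRE, but its fold was 3.95 over a background of 2.58 reads, and 96.6% of kEpiSC peaks had a higher q-value score. Its nearest EpiSC peak was 17460 bp away with a fold of 4.76.

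Hspa8 encodes the constitutive Hsp70 protein Hsc70 and Hspa4 a nucleotide exchange factor of the Hsp110 family. Both had a promoter peak in EpiSCs and none in kEpiSCs, at 262 bp upstream with a fold of 4.36 from 15 reads (Hspa8) and at 116 bp upstream with a fold of 3.54 from 12 reads (Hspa4). The local background at both was 2.67 reads, the highest of all 39 peaks, and Hspa4 had the lowest fold of them. The Hspa8 peak held a heat shock element. Hspa1a and Hspa1b encode the stress-inducible Hsp70 and are near-identical copies on chromosome 17. Of all 50-base windows in the transcribed region of Hspa1a, 62.4% also occur in Hspa1b, and 16.0% in the 1000 bp upstream, and only uniquely mapped reads were kept. Hspa1a had a peak 411 bp upstream with a fold of 5.47 (7 reads) in EpiSCs and, overlapping it, 6.69 (11 reads) in kEpiSCs. That peak lay nearer to the TSS of the divergent gene Hspa1l, at 136 bp in EpiSCs. Hspa1b had an EpiSC peak alone, 8465 bp downstream with a fold of 5.09 from 7 reads. Hsph1, a further Hsp110 gene, had its nearest EpiSC peak 85461 bp away.

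The J-protein genes had peaks in EpiSCs at 6 of 8 genes, whereas in kEpiSCs only Dnajb9 had one. Dnajb6, whose product keeps aggregation-prone proteins soluble, had 4 EpiSC peaks, more than any other of the 45 genes. Its promoter peak (chromosome 5, 29735613 to 29735986) was centred 98 bp upstream with a fold of 10.4 from 20 reads. The other 3 were 1253, 4741 and 8843 bp upstream with folds of 5.82, 4.76 and 4.79 from 10, 8 and 6 reads. None of the 4 had an AP-1 site in its central 200 bp, although the promoter peak had one further out, while the promoter peak and the one at 4741 bp each had a heat shock element. In kEpiSCs the nearest peak was 35903 bp from Dnajb6.

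Dnajb9 encodes an ER J-protein that binds BiP and is induced by the unfolded protein response. Its promoter peak, 158 bp upstream, had a fold of 10.1 from 18 reads in EpiSCs and 4.13 from 20 reads in kEpiSCs. Reads are not on 1 scale in the 2 lists, whose medians were 10 in EpiSCs and 14 in kEpiSCs. The background was 0.890 reads in EpiSCs and 3.87 in kEpiSCs, and its part in the fold was not tested. Dnajb1, the main partner of inducible Hsp70, had an EpiSC peak 5528 bp upstream with a fold of 9.58 from 13 reads, with an AP-1 site outside its central 200 bp but none within. The remaining J-protein genes with a peak had a single one, in EpiSCs alone. At Dnajb11, an ER co-factor of BiP, it lay 139 bp downstream of the TSS inside the promoter of the neighbouring gene Tbccd1, and was counted as distal for Dnajb11 (fold 6.12, 12 reads). At Dnajb4 it was 1676 bp upstream in intron 1 of Fubp1, whose TSS was nearer (fold 4.99, 7 reads). The Dnaja2 promoter peak, 376 bp upstream, had a fold of 3.84 and rested on 5 reads, the fewest of the 39. For Dnaja1 and Dnajc3 the nearest EpiSC peaks were 122619 and 69112 bp away.

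**Figure D2:**
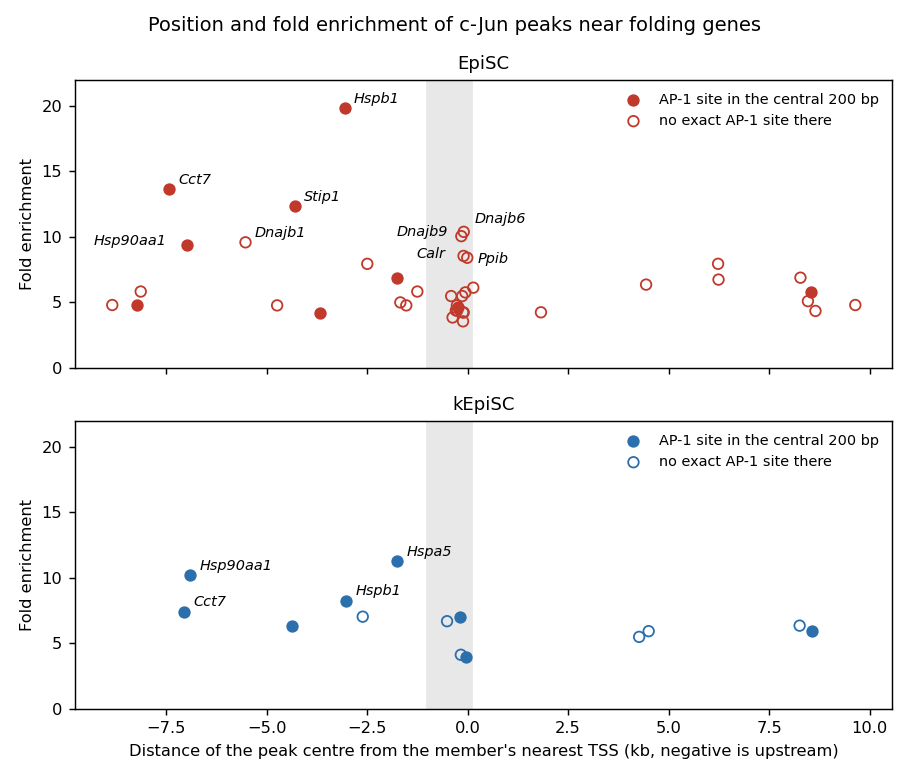
Distance of each peak centre from the nearest TSS of its folding gene (x axis, kb, negative is upstream) and fold enrichment (y axis) in EpiSCs (top) and kEpiSCs (bottom), with the promoter shaded and filled marks for peaks with an exact AP-1 site in the central 200 bp. In EpiSCs 1 of 14 promoter peaks and 8 of 25 distal peaks are filled. The distal peaks of Hspb1, Cct7, Stip1 and Hsp90aa1 are filled and that of Dnajb1 is open.

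Of the ER folding genes, Hspa5, Calr and Ppib had EpiSC peaks. Hspa5 encodes BiP, the Hsp70 protein of the ER, and had a pair of peaks in both lines, all with an AP-1 site. The distal one lay 1764 bp upstream (chromosome 2, 34770238 to 34770413), with a fold of 6.88 from 12 reads in EpiSCs and 11.3 from 20 reads in kEpiSCs, the highest of the 14 kEpiSC peaks. The promoter peak, 231 bp upstream, had folds of 4.68 (12 reads) and 7.05 (13 reads). It was the only one of the 14 EpiSC promoter peaks with an exact AP-1 site in its central 200 bp, and its centre also held 3 CCAAT boxes. Calr, the gene of the lectin chaperone calreticulin, had an EpiSC promoter peak 102 bp upstream with a fold of 8.54 from 12 reads and the ER stress element shown above. Ppib encodes cyclophilin B, a prolyl isomerase, and its EpiSC peak, 11 bp upstream, had a fold of 8.40 from 16 reads. Its kEpiSC peak was a different one, in intron 3, 4266 bp downstream (fold 5.49, 9 reads). The kEpiSC peak nearest to Calr was 67177 bp away.

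The other 6 ER genes, Hsp90b1, Canx, Pdia3, Pdia4, Pdia6 and P4hb, which encode the ER Hsp90, calnexin and 4 disulfide isomerases, had no peak in either line. Pdia4 was closest to the 10 kb limit, with an EpiSC peak at 10873 bp (fold 5.73). On the inner side of the limit stood Ahsa1, with a peak at 9644 bp (fold 4.79). In kEpiSCs the corresponding genes were Bag3 at 8560 bp (fold 5.93) and Hspa1b at 13431 bp (fold 6.69).

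The mitochondrial chaperone genes had weak promoter peaks in EpiSCs. Hspd1 (Hsp60) and Hspe1 (Hsp10), which encode the mitochondrial chaperonin and its lid, are divergent genes with a common promoter and were counted from 1 and the same peak. It lay 117 bp upstream of Hspd1 and 99 bp upstream of Hspe1, had a fold of 4.22 from 11 reads and held 2 heat shock element matches. Hspa9, the mitochondrial Hsp70 gene, had a peak 294 bp upstream with a fold of 4.38 from 11 reads. Neither peak was found in kEpiSCs, and neither was among the 8083 higher-scoring of the EpiSC peaks.

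The small heat shock protein and co-chaperone genes had mostly distal peaks. Their median EpiSC folds, 4.76 and 5.27, were below the 5.76 of all 39 peaks, although a peak each of Hspb1 and Stip1 had a high fold. Hspb1 encodes the small heat shock protein Hsp25, which holds unfolded proteins without ATP. Its peak 3059 bp upstream (chromosome 5, 135884628 to 135885092) had a fold of 19.8 from 31 reads, and only 0.445% of EpiSC peaks had a higher q-value score. In kEpiSCs the overlapping peak had a fold of 8.25 from 20 reads, and both held the AP-1 site printed above in their central 200 bp. A second distal peak of Hspb1, 8233 bp upstream, also had an AP-1 site, whereas its promoter peak, 268 bp upstream, had none. Both had a fold of 4.76 from 8 reads and were absent from the kEpiSC list. Hspb8, the partner of Bag3 in selective autophagy, had a peak 2498 bp upstream with a fold of 7.94 in EpiSCs and 7.04 in kEpiSCs. That peak held a CRE and no AP-1 site in both lines, and was the only one of the 39 EpiSC peaks with a CRE. An intron 1 peak of Hspb8, 1823 bp downstream, was seen in EpiSCs alone (fold 4.23, 7 reads), with an AP-1 site outside its central 200 bp.

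Stip1 encodes Hop, the adaptor that holds Hsp70 and Hsp90 together. Its peak 4303 bp upstream (chromosome 19, 7044197 to 7044460) had a fold of 12.3 from 17 reads in EpiSCs and 6.31 from 15 reads in kEpiSCs, with an AP-1 site in both. A weaker EpiSC peak stood 8135 bp upstream (fold 5.82, 10 reads). Bag3, a nucleotide exchange factor of Hsp70, had a peak in its own intron 1, 8540 bp downstream, with folds of 5.76 and 5.93 and 2 AP-1 sites in each line. Its other peak, 3662 bp upstream, had 1 AP-1 site and was in the EpiSC list alone (fold 4.18, 6 reads). The genes of the Hsp90 co-chaperones Fkbp4 and Ahsa1 had 1 EpiSC peak each, 8653 and 9644 bp downstream of the TSS, with folds of 4.34 and 4.79 from 6 reads each and no AP-1 site. The Fkbp4 peak was nearer to the TSS of Itfg2, at 5093 bp.

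Pfdn1, a subunit gene of prefoldin, which hands unfolded actin and tubulin to CCT, had an intron 2 peak 4439 bp downstream with folds of 6.35 in EpiSCs and 5.93 in kEpiSCs. Its EpiSC promoter peak, 136 bp upstream, had a fold of 5.47 from 7 reads. Pfdn2 had its nearest EpiSC peak at 24474 bp. Of the heat shock factor genes, Hsf2 had 2 EpiSC peaks, in intron 1 at 6230 bp downstream (fold 7.94, 11 reads) and at 1528 bp upstream (fold 4.76, 8 reads), neither of which had an AP-1 site or a kEpiSC counterpart. Hsf1, the gene of the master regulator of the heat shock response, had its nearest peak at 34623 bp in EpiSCs and at 45918 bp in kEpiSCs.

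Promoter peaks, from 1000 bp upstream to 100 bp downstream of a TSS, were distinguished from distal peaks, which are the other peaks within 10 kb. In EpiSCs 15 of 45 genes had a promoter peak (33.3%, Wilson interval 21.4 to 47.9%) where 7.28% of all protein-coding genes did, and 17 had a distal peak (37.8%, 25.1 to 52.4%) where 16.8% did. In kEpiSCs 4 genes had a promoter peak (8.89%, 3.51 to 20.7%) against 2.01% of all genes, and 9 a distal one (20.0%, 10.9 to 33.8%) against 6.63%. The 14 EpiSC promoter peaks were centred 11 to 411 bp from the TSS, with a median of 147 bp. Their median fold was 5.12, and that of the 25 distal peaks was 5.82. All promoter peaks of the EpiSC list had a median fold of 5.29, and all distal peaks within 10 kb one of 6.16. The lower fold of promoter peaks went with a higher background of 1.02 reads, where distal peaks near these genes had 0.890, and the median reads at the summit were 12 and 11. The GC content of the central 200 bp was 60.8% in promoter peaks and 48.5% in distal ones. The part of background and GC content in the fold was not tested.

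Most of the peaks lay upstream and had a folding gene as their nearest gene. Of the 39 EpiSC peaks, 29 were upstream of the TSS, 33 had a listed gene as the nearest TSS and 26 had no other gene within 10 kb. For the other 13 the peak was shared with a neighbouring gene, as at Cct7, Dnajb4, Hspa1a and Fkbp4. In kEpiSCs 11 of 14 peaks had a listed gene nearest and 9 had no other within 10 kb. Such counts were not made for all peaks within 10 kb of a gene, so they cannot be read as particular to folding genes. Among the 27 genes with an EpiSC peak, 17 had 1 peak, 8 had 2 and 2 had 3 or more, the latter being Hspb1 and Dnajb6. The 18 genes without an EpiSC peak had their nearest peak at a median of 37417 bp.

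**Figure D3:**
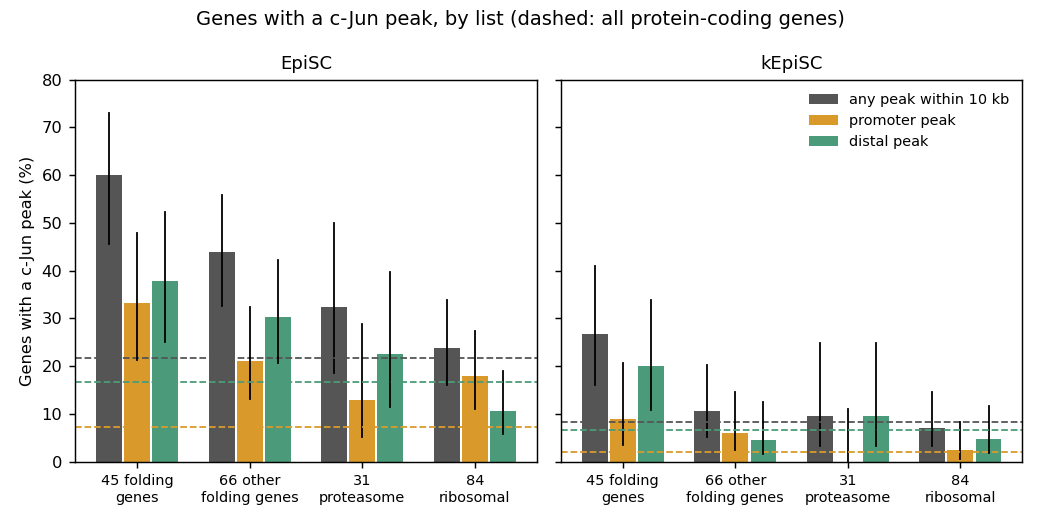
Percentage of genes (y axis) with any c-Jun peak within 10 kb, a promoter peak or a distal peak, for the 45 folding genes, 66 other folding genes, 31 proteasome genes and 84 ribosomal protein genes in EpiSCs (left) and kEpiSCs (right). Bars are shares, black lines 95% Wilson intervals and dashed lines the share of all protein-coding genes, which is 21.8% for any peak in EpiSCs, where the 45 genes stand at 60%.

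Other gene lists were described in the same way. Of 66 further folding genes, 29 had an EpiSC peak (43.9%, 32.6 to 55.9%) and 7 a kEpiSC peak (10.6%, 5.23 to 20.3%). The 31 proteasome genes had 10 (32.3%, 18.6 to 49.9%) and 3 (9.68%, 3.35 to 24.9%), and the 84 ribosomal protein genes 20 (23.8%, 16.0 to 33.9%) and 6 (7.14%, 3.31 to 14.7%). The shares of all protein-coding genes were 21.8% in EpiSCs and 8.27% in kEpiSCs. For the shorter length groups of the ribosomal protein genes they were 19.7% and 7.56%. In kEpiSCs the intervals of these further lists all include 8.27%. EpiSC promoter peaks were at 14 of the 66 further folding genes (21.2%, 13.1 to 32.5%) and 15 of the 84 ribosomal protein genes (17.9%, 11.1 to 27.4%). The proteasome genes had 4 of 31 (12.9%, 5.13 to 28.9%). Among all genes the promoter share was 7.28%, and for the length groups of the ribosomal protein genes 5.46%. A promoter share above that of all genes was thus not particular to the 45 genes. The further folding genes with a peak in both lines were Dnajb2 and Dnajb5 of the J-proteins, the small heat shock protein gene Hspb7, the cyclophilin A gene Ppia, and the ER genes Pdia5, Sdf2l1 and Herpud1. Of these, Ppia had the highest EpiSC fold, 9.52, in a peak 4761 bp downstream with 2 AP-1 sites, against 5.64 in kEpiSCs. Herpud1, which acts in the degradation of ER proteins, had a promoter peak with folds of 4.39 from 19 reads and 8.86 from 33 reads. None of the 8 relatives of Hsp70 and Hsp110 in this list had a peak in either line. No peak of the 66 genes was in the top 10% of EpiSC folds, whereas the proteasome gene Psmb6 had one there (fold 11.8). Of the 39 peaks near the 45 genes 3 stood there, those of Hspb1, Cct7 and Stip1. That count is near the 10% of all EpiSC peaks that stand there by definition.

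Exact AP-1 sites, TGACTCA or TGAGTCA on either strand in the central 200 bp, were found in 9 of the 39 EpiSC peaks (23.1%, Wilson interval 12.6 to 38.3%). All EpiSC peaks had one in 45.9%, and those within 10 kb of any protein-coding gene in 35.7%. By position, 1 of 14 promoter peaks (7.14%, 1.27 to 31.5%) and 8 of 25 distal peaks (32.0%, 17.2 to 51.6%) had a site, where all promoter peaks had 15.1% and all distal peaks within 10 kb 43.8%. The intervals for the folding genes include the last 2 values. The 9 peaks belonged to Hspb1 (2), Bag3 (2), Hspa5 (2), Cct7, Hsp90aa1 and Stip1, so that no peak of a J-protein, mitochondrial chaperone, prefoldin or heat shock factor gene had one there. Over their whole length 12 of the 39 peaks (30.8%, 18.6 to 46.4%) held a site, against 51.0% of all EpiSC peaks, the 3 added being the Dnajb1 peak, the Dnajb6 promoter peak and the intron 1 peak of Hspb8. In kEpiSCs 8 of 14 peaks had a site (57.1%, 32.6 to 78.6%), and 58.5% of all kEpiSC peaks.

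**Figure D4:**
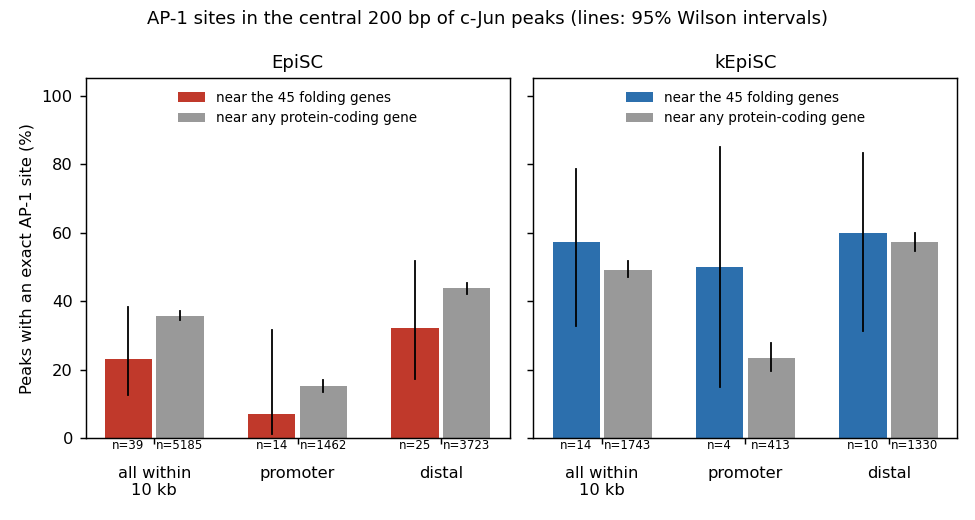
Percentage of peaks with an exact AP-1 site in the central 200 bp (y axis) for peaks near the 45 folding genes (coloured) and near any protein-coding gene (grey), by position, in EpiSCs (left) and kEpiSCs (right), with 95% Wilson intervals as black lines and the number of peaks under each bar. In EpiSCs the coloured bars stand at 23.1, 7.14 and 32.0%, the grey ones stand at 35.7, 15.1 and 43.8%, and the widest intervals belong to the 4 kEpiSC promoter peaks.

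Other motifs were searched in the same 200 bp on both strands. A heat shock element, taken as GAA, TTC and GAA or the reverse order with 2 bases between neighbours, was present in 4 of the 39 EpiSC peaks (10.3%, 4.06 to 23.6%), against 0.402% of all EpiSC peaks. These were the promoter peaks of Dnajb6, Hspa8 and Hspd1 with Hspe1 and the Dnajb6 peak at 4741 bp. Over the whole list 6 promoter peaks (0.410%) held the motif, 3 of them those of the folding genes. The ER stress element, CCAAT and CCACG with 9 bases between them, was in 1 of the 39 peaks, that of Calr, and in 0.0433% of all EpiSC peaks. CCAAT alone, which is also part of that element, was in 12 of 39 (30.8%, 18.6 to 46.4%), against 20.6% of all. No kEpiSC peak near the folding genes had a heat shock element or ER stress element, and with 14 peaks the intervals reach 21.5%.

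The motifs were also counted in the promoters themselves, whether or not they had a peak, from 250 bases upstream to 50 downstream of the start in RefSeq on GRCm38.p6, which matched 38 of the 45 genes. The genes not matched were Cct4, Hsp90aa1, Hsp90ab1, Hspa8, Hspa9, Pfdn1 and Hsf1. Heat shock elements were in the promoters of 4 of 38 genes (10.5%, 4.17 to 24.1%), Hsph1, Dnajb6, Hspd1 and Hspe1, and in 0.605% of all 16853 promoters. Of these 4 genes, the last 3 had an EpiSC promoter peak and Hsph1 had none. ER stress elements were in 6 of 38 (15.8%, 7.44 to 30.4%), Dnajc3, Hspa5, Hsp90b1, Calr, Canx and Pdia6, and in 0.172% of all promoters, and 2 of these 6, Hspa5 and Calr, had an EpiSC promoter peak. CCAAT was in 25 of 38 (65.8%, 49.9 to 78.8%), including 9 of 9 ER genes, and in 42.6% of all promoters. An AP-1 site was in 2 of 38 promoters, Hspa5 and Bag3 (5.26%, 1.46 to 17.3%), and in 5.50% of all. A CRE was in none of the 38, where 2.62% of all had it and the interval reaches 9.18%. A match is a match of letters and is not evidence that a factor binds there.

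Of the 45 genes, 11 had a peak in both lines, 16 in EpiSCs alone, Hsp90ab1 in kEpiSCs alone and 17 in neither. The same division was not counted over all protein-coding genes, of which 21.8% had an EpiSC peak and 8.27% a kEpiSC peak. It cannot be read as particular to the folding genes. Peak by peak, 11 of the 39 EpiSC peaks overlapped a kEpiSC peak by at least 1 bp (28.2%, 16.5 to 43.8%). Over the whole EpiSC list 28.3% did, and 25.7% when averaged over peaks of the same fold groups. In the other direction 11 of 14 kEpiSC peaks overlapped an EpiSC peak (78.6%, 52.4 to 92.4%), against 75.8% of all. The overlapping peaks stood at Hsp90aa1 (2), Hspa5 (2), Hspa1a, Dnajb9, Hspb1, Hspb8, Stip1, Bag3 and Pfdn1. The fold was higher in EpiSCs at 6 and in kEpiSCs at 5. It was higher in EpiSCs at Hspb1 (19.8 and 8.25), Stip1 (12.3 and 6.31) and Dnajb9 (10.1 and 4.13), and higher in kEpiSCs at both Hspa5 peaks. Each list has its own depth and background, so these values are set side by side without a test. Of the 11 overlapping EpiSC peaks 6 had an AP-1 site, and of the other 28 EpiSC peaks 3 had one. This split was not counted over all EpiSC peaks, so it cannot be read as particular to the folding genes. Over the whole lists, AP-1 sites were in 58.5% of kEpiSC peaks and 45.9% of EpiSC peaks.

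**Figure D5:**
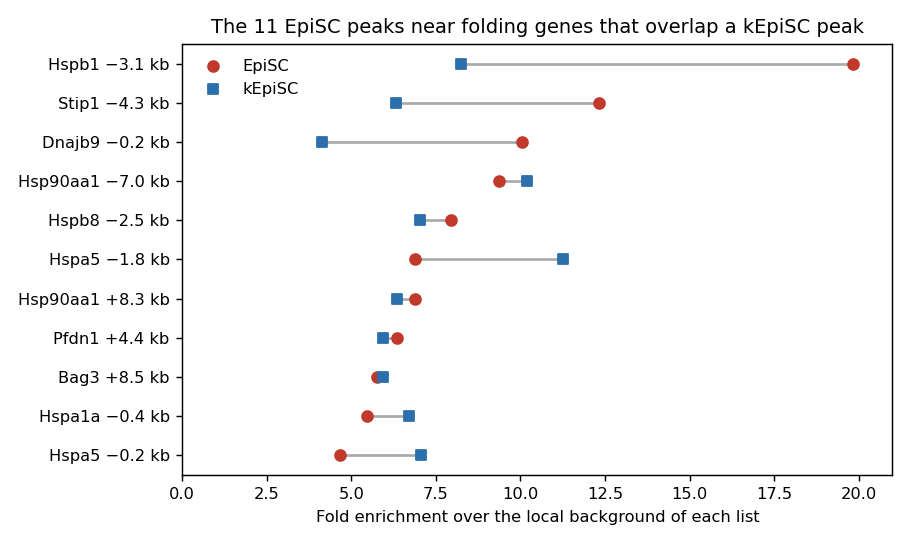
Fold enrichment (x axis) of the 11 EpiSC peaks near folding genes that overlap a kEpiSC peak, 1 row per peak named by gene and distance from the TSS, with EpiSCs as red circles and kEpiSCs as blue squares joined by a line. Hspb1, Stip1 and Dnajb9 have the widest gaps with EpiSCs higher, and the Hspa5 peak at 1764 bp upstream the widest with kEpiSCs higher, at 6.88 and 11.3.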

How the data were processed

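c-Jun ChIP-seq of 2 lines was used, with 2 ChIP and 2 input libraries each. Per the study's methods and labels, the authors aligned the reads to mm10 by Bowtie2, discarded reads that did not map uniquely, and ran MACS2 with default settings. Also named in the submitters' notes are bcl2fastq, bedtools and SAMtools. No tool version is stated there. Read lengths of 75 bp (methods) and 50 bp (labels) are both stated. One peak list per line was deposited. The deposited columns used are the score, the fold enrichment, the −log10 p-value, the −log10 q-value and the summit.

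From these, reads at the summit were solved from fold and p-value (within 0.01 for 100% of EpiSC and 99.6% of kEpiSC peaks, with 1 read worth 0.775 in kEpiSCs), and peak centres were assigned to TSSs of curated RefSeq transcripts (GRCm38.p6). Depth is known only as reads at the summit, a median of 10 in EpiSCs and 14 in kEpiSCs. The 45 genes, the other lists and the motifs were chosen with earlier results of these data known, so no test was run, and shares have 95% Wilson intervals. The text names all 45 genes and, of other folding genes, those with a peak in both lines or with an EpiSC fold in the top 10%, and up to 8 sequences: the highest fold with an AP-1 site in each class and the highest promoter fold of the 4 main classes. One of the 39 EpiSC peaks is counted but not reported singly here. Alternatives covered the distance, gene assignment, promoter, annotation, overlap, motif window and higher-scoring peaks. The calculations were tested on simulated data. The software was pandas 2.3.3, scipy 1.17.1, numpy 2.4.6, matplotlib 3.10.9 and pysam 0.24.0 under Python 3.11.15.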

Additional observations from a re-analysis of the deposited data

How the results depend on the processing

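No paired analysis was possible because the lists give 1 value per peak and line, not per library, so replicates could not be left out in turn either. With only the 50% of each list that scored higher, by q-value, 16 of the 45 genes had a peak in EpiSCs (10.7% of all genes) and 3 in kEpiSCs (Hsp90aa1, Hspa5 and Hspb1, 3.82% of all genes). The genes lost in EpiSCs were Ahsa1, Dnaja2, Dnajb4, Fkbp4, Hspa1a, Hspa1b, Hspa4, Hspa8, Hspa9, Hspd1 and Hspe1. At 50 kb the kEpiSC count was 22, where 27.0% of all genes had a peak, and the EpiSC count was 38, where 50.7% did. At 5 kb the counts were 21 (15.3% of all genes) and 9 (5.13%). With peaks assigned to the nearest TSS alone, without the 10 kb limit, they were 24 (33.5% of all genes) and 15 (17.3%). Genes gained in this way include Dnajc3, whose nearest EpiSC peak was 69112 bp away. Cct7 and Hspa1a had no peak in either line under this assignment. With promoters from 5 kb upstream to 1 kb downstream there were 24 promoter peaks in EpiSCs and 8 in kEpiSCs. With at most 1 mismatch, AP-1 sites were in 53.8% of EpiSC and 92.9% of kEpiSC peaks near these genes (78.3 and 86.4% of all peaks). Among the higher-scoring 50% of the EpiSC list, exact sites were in 33.3% of peaks near these genes (56.8% of all). For the kEpiSC list the share was 100% (66.8% of all), but it rests on only 4 peaks near these genes. With 100 bp on both sides of the summit, exact sites were in 23.1% of EpiSC and 50.0% of kEpiSC peaks near these genes (49.2 and 62.2% of all). Counted with the summit (21.8 and 8.26% of all genes) or with all RefSeq transcripts (23.1 and 9.13%), 27 and 12 genes had a peak. Without Hspa1a and Hspa1b, an alternative chosen after seeing the data, the counts were 25 and 11 of 43. With Hspd1 and Hspe1 taken as 1 gene, also chosen afterwards, they were 26 and 12 of 44. When the overlap had to cover 50% of the EpiSC peak, 8 of 39 peaks were shared, as were 20.8% of all EpiSC peaks. Placing the ER J-protein genes with the ER folding genes gave 5 of 12 ER genes and 4 of 5 J-protein genes with an EpiSC peak. Many peaks rest on few reads, and the depth limits statements on genes without one.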
